A study of Mus musculus with 192 samples.

Results

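The combination SeV + cGAMP + CpGB was compared with the 3 pairs that can be made from the same ligands, SeV + cGAMP, SeV + CpGB and cGAMP + CpGB, which measures what each ligand adds when the other ligands are already present. The libraries of each group were taken by their labels. They are the 3 libraries of the triplet and the 3 of each pair, 12 libraries in 4 of the 64 groups of 3 that make up the series. The cells were bone marrow-derived dendritic cells (BMDCs), antigen-presenting cells grown from the bone marrow of female C57BL/6J mice of 6 to 8 weeks in medium with 15 ng/mL GM-CSF, a myeloid growth factor. Wells of 100000 cells were stimulated for 6 hours, and the labels record no difference between the groups other than the ligands. The labels name SeV, 3',3'-cGAMP and CpGB and give no dose. For reference, the 12 libraries of cells that received SeV, cGAMP or CpGB alone or no ligand (Ctrl) were read in the same way. Nothing in the labels says that replicate wells came from separate mice or cultures. The p-values measure the spread between libraries of the same group, estimated over all 64 groups of the series, and that spread may be technical.

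SeV is Sendai virus, an RNA virus that is sensed in the cytosol by RIG-I through the adaptor MAVS. 3',3'-cGAMP is a cyclic dinucleotide that binds STING, and CpGB is a synthetic CpG DNA of class B, a ligand of the endosomal receptor TLR9, which signals through MyD88. RIG-I and STING share the kinase TBK1 and the factor IRF3, which switch on interferon-beta. Secreted interferon then induces antiviral genes through the ISRE, a DNA element in their promoters. MyD88 acts largely through NF-kB, which binds kappaB elements in promoters of inflammatory cytokines and chemokines.

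The promoters of 6 genes to which the results return show both kinds of element. They are given 5′ to 3′ on the strand of the gene and end at the base before the start of transcription, from RefSeq on GRCm38.p6, the assembly also called mm10, and all 6 were matched by gene symbol. Capitals mark kappaB matches (GGG, any 5 bases, then CC, on either strand) in the first 4 genes and ISRE matches (GAAA, any 2 bases, then GAAA, on either strand) in Ifit1 and Cxcl10.
Cxcl1 (chr5:90891145-90891244, plus strand): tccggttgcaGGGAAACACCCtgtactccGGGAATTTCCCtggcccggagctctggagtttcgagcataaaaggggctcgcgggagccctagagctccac
Cxcl2 (chr5:90903799-90903898, plus strand): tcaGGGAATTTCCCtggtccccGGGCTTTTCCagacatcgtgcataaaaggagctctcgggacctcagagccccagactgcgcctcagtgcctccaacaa
Cxcl3 (chr5:90786001-90786100, plus strand): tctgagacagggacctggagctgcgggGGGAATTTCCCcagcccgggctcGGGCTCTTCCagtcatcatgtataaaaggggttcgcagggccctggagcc
Il6 (chr5:30013014-30013113, plus strand): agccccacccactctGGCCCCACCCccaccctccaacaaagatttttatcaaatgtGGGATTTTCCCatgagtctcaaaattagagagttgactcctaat
Ifit1 (chr19:34640779-34640888, plus strand): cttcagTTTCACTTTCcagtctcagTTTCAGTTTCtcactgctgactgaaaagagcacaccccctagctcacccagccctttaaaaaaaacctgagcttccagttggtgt
Cxcl10 (chr5:92348890-92349109, minus strand): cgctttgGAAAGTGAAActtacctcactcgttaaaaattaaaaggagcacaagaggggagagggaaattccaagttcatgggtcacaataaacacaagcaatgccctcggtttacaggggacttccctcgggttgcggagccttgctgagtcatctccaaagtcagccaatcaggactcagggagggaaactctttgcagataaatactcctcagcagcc
Within 250 bases before the start, the kappaB pattern is in 45.8% of 32851 mouse promoters and the ISRE pattern in 2.98%. The run GGGAATTTCCC, which is shared by Cxcl1, Cxcl2 and Cxcl3 and holds a pair of overlapping kappaB matches, is in 14 promoters (0.0426%). These 3 chemokine genes lie close together on chromosome 5. Cxcl10 also holds kappaB matches, left in lower case here, from 159 to 150 and from 104 to 94 bases before its start. Overlapping pairs of kappaB matches from 160 to 150 bases before the start of Ifit1 and from 120 to 110 bases before that of Cxcl3 lie outside the printed stretches. A match describes letters in a sequence and not a site in use.

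Expression was read as counts of unique molecular identifiers (UMIs, tags that mark single cDNA molecules), and levels are given as CPM, which scales each library to the same total. The 12 libraries held 94273 to 194237 counts, with a median of 131608, and the triplet had the lowest mean of the 4 groups, 113941 ± 17256 (SD, n = 3). A single count equals 5.24 to 11.2 CPM in these libraries. Ribosomal protein genes took 3.01 to 3.39% of the counts in the triplet, 3.36 to 3.57% in SeV + cGAMP, 3.42 to 3.56% in SeV + CpGB and 3.07 to 3.26% in cGAMP + CpGB, so that the triplet overlapped all pairs but SeV + CpGB, and 5.35 to 5.62% in Ctrl. The part of this share in the results was not tested. Of 13 markers of GM-CSF dendritic cells, 11 had counts in the triplet, where Flt3 and Zbtb46 were at 0, and their summed level was 25609 to 31090 CPM over the 12 libraries. Macrophage markers summed to 1932 to 3603 CPM, neutrophil markers to 625 to 976 CPM, plasmacytoid dendritic cell markers to 106 to 263 CPM and eosinophil markers to 39.5 to 105 CPM. The lists of B, T and NK cells, mast cells and erythroid cells were at or near 0. In bulk samples, fewer cells of a type and less RNA per cell cannot be told apart. Counts of related genes, such as members of the Ifit, Cxcl1 to Cxcl3, Ccl3 and Ccl4 and guanylate-binding protein families, are uncertain where reads could be split between them.

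Of the 3 ligands, CpGB changed the most genes when it completed the triplet, cGAMP fewer, and SeV none that passed. Against SeV + cGAMP, 154 of 4720 tested genes were higher in the triplet (3.26%) and 102 were lower (2.16%), 256 in all (5.42%). Against SeV + CpGB, 99 were higher (2.1%) and 45 lower (0.953%), 144 in all (3.05%). The 45 became 28 without triplet replicate 1 and 24 with DESeq2. With the 24 libraries thinned to 1 depth, CpGB gave 97 higher and 42 lower and cGAMP 53 higher and 20 lower. Scaled by library size alone, the splits were 132 higher and 132 lower for CpGB and 88 higher and 64 lower for cGAMP. Against cGAMP + CpGB, 0 were higher and 0 lower (0%) by edgeR, with 262 at an unadjusted p under 0.05 and 0 called by DESeq2. A gene was called at an adjusted p under 0.05 in the quasi-likelihood test of edgeR, adjusted after Benjamini and Hochberg, and a log2 fold change of at least 1 in size, which is a 2-fold difference. The adjusted p-values of the report come from that test.

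**Figure D1:**
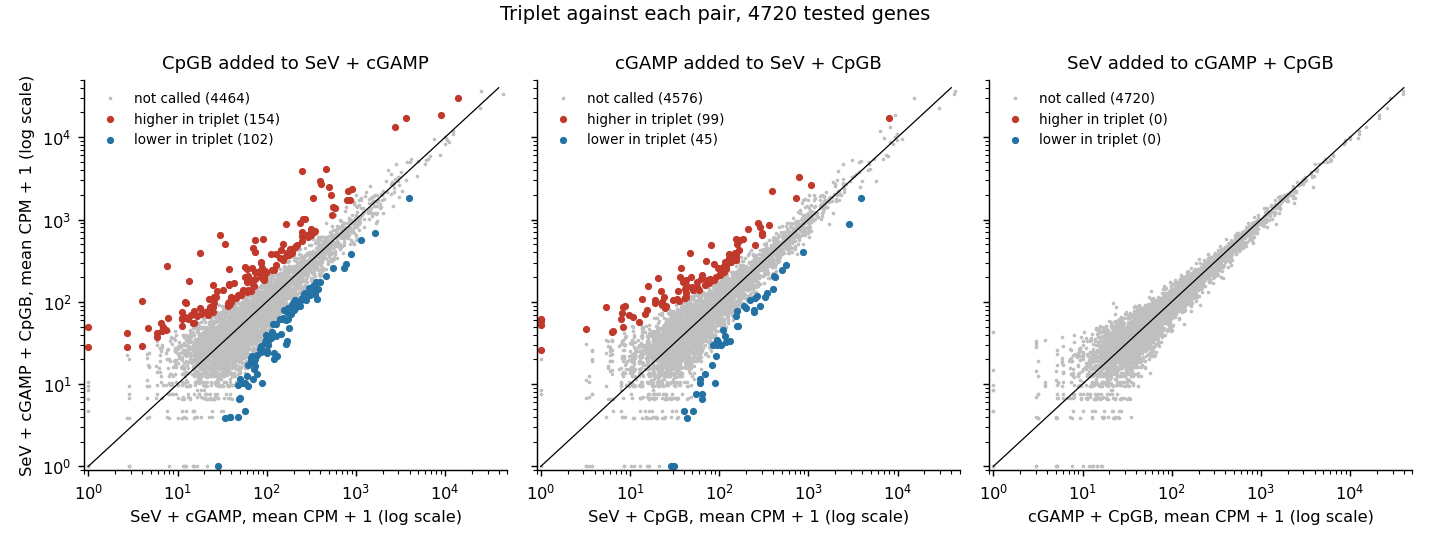
Mean CPM + 1 of each of 4720 genes in the triplet (y axis, log scale) against the same in 1 of its pairs (x axis, log scale), 1 panel per added ligand, with a line of equality, red for genes called higher in the triplet, blue for genes called lower and grey for the rest. With CpGB added 154 genes are red and 102 blue, with cGAMP added 99 and 45, and with SeV added 0 and 0.

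CpGB raised most of the inflammatory cytokines that were tested. Of 17 genes of the cytokine list 12 were tested, and of these 9 rose and 0 fell, with a median log2 fold change of 2.19. The median over all tested genes was -0.03, and 3.26% of genes were called higher. Il6, which encodes the cytokine interleukin-6, stood at 206, 283 and 260 CPM in the 3 SeV + cGAMP libraries and at 3886, 3567 and 4181 CPM in the triplet. All triplet libraries lay above all pair libraries, a 15.2-fold difference (log2 fold change 3.92, SE 0.17, adjusted p = 5.73e-55). Over all tested genes, the triplet libraries lay all above the pair for 11% and all below it for 12.8%. The largest rises and falls of each comparison were taken only from genes without overlap. Here Il6, Il12a, Il12b, Ptgs2 and Cxcl1 were among these rises. For genes taken in that way the lack of overlap is no separate support. Tnf, the tumour necrosis factor gene, was at 3829, 3643 and 3586 CPM in the pair and at 15566, 18501 and 17446 CPM in the triplet, again without overlap. Its log2 fold change was 2.22 (SE 0.16, adjusted p = 4.39e-29).

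Both subunits of interleukin-12, the cytokine with which dendritic cells drive T helper 1 responses, rose from low levels. Il12b, the p40 subunit, had 17.9, 21 and 11.3 CPM with SeV + cGAMP and 636, 283 and 246 CPM in the triplet. The groups did not overlap, and within the triplet replicate 1 stood above the other two. The log2 fold change was 4.43 (SE 0.59, adjusted p = 2.05e-10). Il12a, the p35 subunit, rose from 8.95, 5.24 and 5.65 CPM, which are 3 counts in all, to 301, 257 and 246 CPM, with no overlap. The count ratio was 42.4 (95% counting interval 14 to 210). Il1b, the interleukin-1 beta gene, stood at 420, 556 and 401 CPM in the pair and at 4277, 4090 and 4020 CPM in the triplet, an 8.88-fold rise without overlap. Il1a, Ebi3, Il27 and Il18 rose as well, by log2 fold changes of 2.77, 2.16, 1.79 and 1.88. Il18 lost its call without SeV + cGAMP replicate 3 (adjusted p = 0.0593), and Il27 without SeV + cGAMP replicate 1 or 3 or triplet replicate 2 or 3 (0.0526 to 0.372). Il10, an anti-inflammatory cytokine, had 5 counts in the triplet and 4 in the pair and was not called (adjusted p = 0.713).

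Chemokines went in both directions. Of 18 listed, 17 were tested, and 11 rose and 2 fell when CpGB was added, where 3.26% and 2.16% of all tested genes did. The median log2 fold change of the list was 1.10. With the 12 libraries thinned to 1 depth 8 rose. Cxcl1, Cxcl2 and Cxcl3, the neutrophil-attracting chemokines whose promoters are printed above, rose 13.8-fold, 5.1-fold and 5.61-fold. Cxcl1 was at 17.9, 31.5 and 50.8 CPM in SeV + cGAMP and at 569, 478 and 458 CPM in the triplet, with no overlap. Ccl17 and Ccl22, which attract T cells through the receptor CCR4, rose by log2 fold changes of 2.86 and 1.94. Ccl5, which attracts T cells and monocytes, had 14671, 12963 and 14497 CPM in the pair and 29200, 27609 and 33230 CPM in the triplet. All triplet libraries were higher (log2 fold change 1.10, SE 0.14, adjusted p = 4.82e-11).

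The 2 chemokines that fell, Cxcl9 and Cxcl11, bind the receptor CXCR3, as Cxcl10 does. Cxcl9 was at 939, 865 and 847 CPM with SeV + cGAMP and at 391, 301 and 441 CPM in the triplet. The libraries did not overlap, and the log2 value was -1.22 (SE 0.21, adjusted p = 1.05e-06). Cxcl11 fell from 185 ± 26.1 to 69.7 ± 21.8 CPM (n = 3 each, log2 fold change -1.37, adjusted p = 0.0254 by edgeR), and lost its call without SeV + cGAMP replicate 2 or any 1 of the triplet libraries, at adjusted p-values of 0.0614 to 0.137. DESeq2 did not call Cxcl11 either. Cxcl10 stood at 9930, 10017 and 10922 CPM in the pair and at 9279, 10153 and 10161 CPM in the triplet. These ranges overlap, and the log2 fold change was -0.06 (95% interval -0.38 to 0.26).

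CpGB also raised genes of NF-kB feedback and of dendritic cell maturation. Over all tested genes 3.26% rose and 2.16% fell. Of 17 tested NF-kB subunits and inhibitors 7 rose and 0 fell, and the subunit genes Nfkb1 and Nfkb2 were among the rises. The log2 fold change of Nfkb2 was 0.97 without SeV + cGAMP replicate 2 and 0.98 without triplet replicate 3, just under the fold threshold. Nfkbiz, which encodes an atypical IkB protein, went from 62.6, 73.4 and 73.4 CPM to 380, 522 and 433 CPM, a 6.27-fold rise with no overlap. Zc3h12a, an RNase that degrades cytokine transcripts, and Nfkbib, an IkB protein, rose 4.15-fold and 3.81-fold. Of 16 listed maturation and costimulation genes 12 were tested, and 5 rose and 0 fell. Cd40, the receptor through which T helper cells license dendritic cells, went from 501, 503 and 559 CPM to 2055, 1894 and 1934 CPM. All triplet libraries were higher (log2 fold change 1.90, SE 0.16, adjusted p = 2.68e-22). The costimulatory gene Cd86 did not pass, at 380 ± 31.7 CPM in the pair and 429 ± 59.9 CPM in the triplet (SD, n = 3, adjusted p = 0.795 by edgeR).

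Among 13 tested inflammatory enzymes and acute-phase genes of 15 listed, 6 rose and 0 fell with CpGB, and 3 rose with the 24 libraries thinned to 1 depth. Over all tested genes 3.26% rose and 2.16% fell with CpGB. Ptgs2, which encodes the prostaglandin-forming enzyme COX-2, was at 53.7, 15.7 and 16.9 CPM in SeV + cGAMP and at 592, 708 and 662 CPM in the triplet, without overlap. Its log2 fold change was 4.67 (SE 0.36, adjusted p = 1.38e-25). Saa3, an acute-phase protein gene, rose 7.46-fold, from 397 ± 48.8 to 2935 ± 196 CPM (SD, n = 3 each). Nos2, the inducible nitric oxide synthase, had 5 counts in the pair and 20 in the triplet, a count ratio of 5.99 (95% counting interval 2.18 to 20.4, adjusted p = 0.0122). Its call was lost without SeV + cGAMP replicate 3 (adjusted p = 0.0732) and without triplet replicate 3 (adjusted p = 0.0878).

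Outside these lists, Batf, a transcription factor of the AP-1 family, Tarm1, a myeloid receptor, and Lta, the lymphotoxin alpha gene, were among the 8 largest rises. Tarm1 went from 12.4 ± 13.5 to 178 ± 29.9 CPM and Lta from 11.2 ± 9.76 to 98.2 ± 54 CPM (SD, n = 3). Batf went from 1 count to 32, a count ratio of 47.9 (95% counting interval 8 to 1950.) Socs3, a feedback inhibitor of cytokine signalling, rose 5.89-fold (SE of the log2 value 0.27, adjusted p = 3.29e-15).

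Some surface receptors fell when CpGB was added. Of 19 listed surface genes of resting phagocytes 14 were tested. Fcgr2b, an inhibitory Fc receptor, and Cd14, the LPS co-receptor, rose, by log2 fold changes of 1.76 and 1.07, and Cd14 fell just short of the fold threshold without SeV + cGAMP replicate 3 (0.98). Clec7a, the beta-glucan receptor Dectin-1, was at 769, 744 and 802 CPM in SeV + cGAMP and at 290, 230 and 348 CPM in the triplet. All triplet libraries were lower (log2 fold change -1.41, SE 0.19, adjusted p = 4.21e-10). Mrc1, the mannose receptor, fell from 208 ± 63.8 to 82.8 ± 17.6 CPM (SD, n = 3, adjusted p = 0.00125 by edgeR). Of the 10 macrophage markers 9 are in the file, and the summed level of the list, which holds Mrc1, was 2809 to 3603 CPM in the pair and 1932 to 2647 CPM in the triplet. Its part in these falls was not tested.

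Of 14 tested sensors and adaptors of the 3 ligands 0 were higher and 1 was lower, on few counts, with a list median of -0.18, where 2.16% of all tested genes were lower. Tmem173, which encodes STING, was at 71.6, 68.1 and 79.1 CPM in the pair and at 22.3, 26.6 and 8.48 CPM in the triplet, without overlap (log2 fold change -1.92, SE 0.65, adjusted p = 0.0419). The call was lost without any 1 of the 6 libraries, at adjusted p-values of 0.0665 to 0.252, and with DESeq2 (0.0916), in 9 of 13 alternatives in all. Tlr9 had 0 counts in all 24 libraries, which for the 12 libraries of the triplet and pairs allows up to 15.7 to 33.5 CPM (3 counts, for counting error only). Tnfsf10, the death ligand TRAIL, was at 169 ± 37.8 CPM in the pair and 73.7 ± 21.4 CPM in the triplet (SD, n = 3, adjusted p = 0.0353 by edgeR). Its call was lost without SeV + cGAMP replicate 2 or 3 and without triplet replicate 1 or 3, at adjusted p-values of 0.0574 to 0.199. DESeq2 did not call Tnfsf10 either (adjusted p = 0.0762).

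The 8 largest falls with CpGB were Cbx3, Ppp3ca, Smim14, Lpxn, Gadd45g, Plekhm1, Ccnd1 and Dnajc15, and all had between 1 and 7 counts in the triplet. Lpxn, a focal adhesion protein gene, went from 62 counts to 6 (121 ± 51 to 19.1 ± 9.46 CPM). Ccnd1, which encodes cyclin D1, went from 36 counts to 4, and Gadd45g, a stress-response gene, from 29 to 3, a count ratio of 0.155 (95% counting interval 0.0302 to 0.5.) Cbx3, a heterochromatin protein gene, had 27 counts in the pair and 1 in the triplet, a count ratio of 0.0554 (95% counting interval 0.00135 to 0.336.) The triplet was the shallowest of the 4 groups. With the 12 libraries thinned to 94273 counts Smim14 alone of the 8 lost its call, and with all 24 libraries thinned to 61823 counts Ccnd1 alone kept it. Calls were also lost without triplet replicate 3 (Smim14, adjusted p = 0.0671), without triplet replicate 2 (Ccnd1, 0.0629, Gadd45g, 0.136, and Plekhm1, 0.114), without triplet replicate 1 (Gadd45g, 0.0994) and without SeV + cGAMP replicate 3 (Gadd45g, 0.058, and Plekhm1, 0.144). DESeq2 did not call Gadd45g (adjusted p = 0.0573) or Plekhm1 (0.0621).

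No interferon-stimulated antiviral gene was called when CpGB was added. All 24 of the list were tested, and 0 were called in either direction by edgeR against SeV + cGAMP. Over all tested genes 5.42% were called, and 0 of 24 is near that share. At an adjusted p under 0.05 with a smaller fold, 1 of the list was higher and 1 lower. The log2 fold changes ran from -0.59 to 0.56 with a median of 0.05. Ifit1, whose product binds foreign RNA and whose promoter carries a pair of ISRE matches, stood at 5162, 4786 and 5117 CPM in the pair and at 5070, 4904 and 5241 CPM in the triplet. These ranges overlap, and the 95% interval of the log2 fold change was -0.25 to 0.28. Rsad2, which encodes the antiviral enzyme viperin, was at 12117 ± 1011 and 11873 ± 1003 CPM (SD, n = 3). Mx1, an antiviral GTPase, was at 4190 ± 270 CPM in the pair and 5384 ± 560 CPM in the triplet (log2 fold change 0.36, adjusted p = 0.0479 by edgeR), under the fold threshold.

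Ifnb1, the gene of interferon-beta, was at 349, 252 and 378 CPM in SeV + cGAMP and at 603, 478 and 645 CPM in the triplet. All triplet libraries were above the pair, and the log2 fold change of 0.83 (SE 0.23, adjusted p = 0.00837) was under the fold threshold. The 8 other interferon genes listed were not tested for want of counts. The list of guanylate-binding proteins, immunity-related GTPases and Irf1 and those of MHC class I and class II presentation likewise had 0 called members of 11, 14 and 8 tested by edgeR, with medians of -0.16, 0.19 and -0.13. Over all tested genes 5.42% were called, and a count of 0 in lists this short is near that share.

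**Figure D2:**
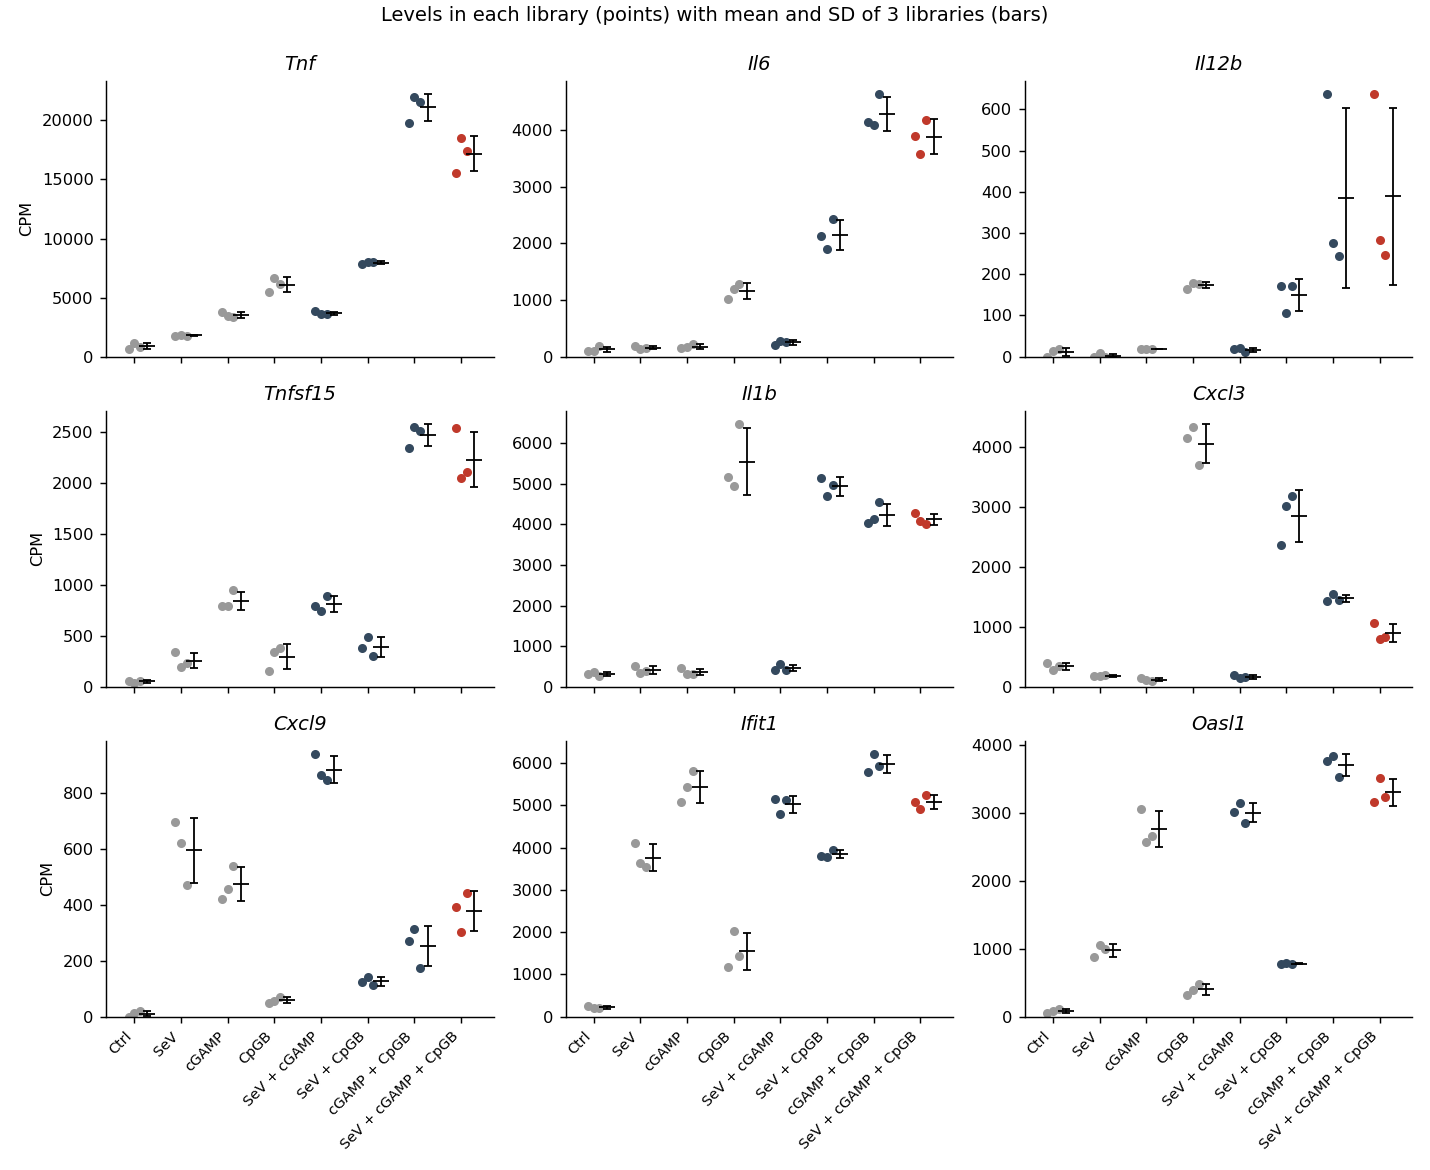
CPM in each library (y axis, linear scale) of 9 genes, 1 panel each, in the 8 groups from Ctrl to the triplet (x axis), with points for the 3 libraries and bars for the mean ± SD. Mean Tnf and Il6 are highest with cGAMP + CpGB, followed by the triplet, Cxcl3 is lower in the triplet than in SeV + CpGB, and Ifit1 lies between 3760 and 5985 CPM on average in the groups that hold SeV or cGAMP.

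When cGAMP was the ligand added, to SeV + CpGB, the genes that rose included Ifnb1, 4 of the cytokine list and 3 of 17 tested chemokines. Of 12 tested cytokines 4 rose and 0 fell, with a median log2 fold change of 0.91, and with the 24 libraries thinned to 1 depth 1 rose. The median over all tested genes was -0.01, and 2.1% of genes were called higher. The summed macrophage markers, 9 of 10 of them in the file, were at 2721 to 3159 CPM with SeV + CpGB, where Mertk was at 0, and at 1932 to 2647 CPM in the triplet. The 13 markers of GM-CSF dendritic cells summed to 27922 to 31090 CPM with SeV + CpGB, where Zbtb46 was at 0, and to 25609 to 26922 CPM in the triplet. Neither list overlapped between the groups, and their part in the results was not tested. Tnf was at 7826, 8020 and 8037 CPM with SeV + CpGB and at 15566, 18501 and 17446 CPM in the triplet. All triplet libraries were higher (log2 fold change 1.11, SE 0.15, adjusted p = 3.92e-09). Over all tested genes, the triplet libraries lay all above SeV + CpGB for 10.7% and all below it for 10.1%. Il6 rose by less than the fold threshold, from 2122, 1905 and 2432 CPM to 3886, 3567 and 4181 CPM, also without overlap (log2 fold change 0.85, SE 0.14, adjusted p = 6.86e-07).

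The interleukin-12 subunits and Il15 were called with cGAMP, and these calls depended on single libraries. Il12a went from 65.6, 113 and 178 CPM to 301, 257 and 246 CPM, without overlap (log2 fold change 1.11, adjusted p = 0.00372), and lost its call without SeV + CpGB replicate 1 (adjusted p = 0.0929). Il12b went from 172, 105 and 172 CPM to 636, 283 and 246 CPM, also without overlap (log2 fold change 1.31, adjusted p = 0.0277). It lost its call without each of SeV + CpGB replicates 1, 2 and 3 (adjusted p = 0.0504, 0.168 and 0.0613), without triplet replicate 1 (0.444) and with DESeq2 (0.119). Il15, a growth factor of natural killer and memory T cells, was 2.07-fold higher (adjusted p = 0.00418). Its log2 fold change was 0.94 without SeV + CpGB replicate 2, 0.95 without triplet replicate 1 and 0.93 without triplet replicate 2, under the fold threshold.

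Ifnb1 rose with cGAMP, from 238, 158 and 159 CPM to 603, 478 and 645 CPM, with no overlap (log2 fold change 1.65, SE 0.26, adjusted p = 3.77e-07). Of the 24 antiviral genes 1 was called higher, where 2.1% of all tested genes were. The called gene was Oasl1, an oligoadenylate synthetase-like gene. It stood at 778, 783 and 773 CPM with SeV + CpGB and at 3149, 3514 and 3223 CPM in the triplet, a 4.23-fold rise without overlap (adjusted p = 1.6e-17). The median log2 fold change of the list was 0.13, and 7 members were higher at an adjusted p under 0.05. Rsad2 was 1 of them, at 6350 ± 172 CPM in the pair and 11873 ± 1003 CPM in the triplet (SD, n = 3, log2 fold change 0.90).

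Among 12 tested maturation genes 3 rose with cGAMP, where 2.1% of all tested genes rose. Tnfsf15, a TNF family costimulator of T cells, went from 377, 489 and 297 CPM to 2535, 2045 and 2103 CPM. The groups did not overlap, and the log2 fold change of 2.52 (SE 0.23, adjusted p = 5.93e-19) had the smallest adjusted p of this comparison. Cd86 rose from 164, 211 and 126 CPM to 491, 372 and 424 CPM, a 2.57-fold difference without overlap (adjusted p = 9.03e-05).

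Among chemokines, Ccl2 and Ccl7, which recruit monocytes, and Cxcl9 rose with cGAMP and Cxcl3 fell. Ccl2 was at 262, 143 and 225 CPM with SeV + CpGB and at 815, 611 and 865 CPM in the triplet, without overlap. Ccl7 rose from 35.9 ± 16.9 to 258 ± 70.6 CPM (SD, n = 3). Cxcl9, which was lower in the triplet than in SeV + cGAMP, was higher there than in SeV + CpGB, at 378 ± 71 against 126 ± 15.6 CPM (log2 fold change 1.58, SE 0.29, adjusted p = 1.26e-05 by edgeR, n = 3).

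The 3 chemokines that share GGGAATTTCCC had unlike values with cGAMP. Cxcl3 went from 2360, 3012 and 3186 CPM to 1061, 788 and 831 CPM. All triplet libraries lay below the pair, and the log2 fold change was -1.69 (SE 0.22, adjusted p = 8.73e-10). Cxcl2 differed by -0.59 on the log2 scale (adjusted p = 0.023), too little for a call. Cxcl1 was at 435 ± 49.7 and 502 ± 59.4 CPM (SD, n = 3) and did not pass (log2 fold change 0.20, adjusted p = 0.786 by edgeR). Differences between the genes in their fold changes were not tested. Saa3 differed by -0.96 (adjusted p = 9.11e-06), also too little, and was called without SeV + CpGB replicate 2 (-1.04) or triplet replicate 3 (-1.03).

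Socs1, the feedback inhibitor of interferon receptor signalling, was called lower in the triplet than in SeV + CpGB and SeV + cGAMP. Against cGAMP + CpGB it was not called. It went from 311, 294 and 258 CPM with SeV + CpGB to 145, 70.8 and 50.9 CPM, without overlap (log2 fold change -1.75, SE 0.30, adjusted p = 4.71e-06). In SeV + cGAMP it was at 206 ± 2.33 CPM (SD, n = 3), also above the triplet (log2 fold change -1.28, adjusted p = 0.00207 by edgeR), a call that was lost without triplet replicate 3 (adjusted p = 0.0902). Slc7a11, the cystine transporter, and Hmox1, haem oxygenase, both known targets of the oxidative stress factor NRF2, were 2.1-fold and 2-fold lower than in SeV + CpGB. Slc7a11 had a log2 fold change of -0.94 without triplet replicate 1. Hmox1 lost its call under another scaling, with DESeq2 and without SeV + CpGB replicate 1 or 3 or triplet replicate 1 or 3, at adjusted p-values of 0.0523 to 0.256 in the last 4. Birc3, an inhibitor of apoptosis that NF-kB induces, was 2.13-fold lower (adjusted p = 0.0371) and lost its call without any 1 of the 6 libraries, at adjusted p-values of 0.0629 to 0.168. DESeq2 did not call Birc3 either (adjusted p = 0.0639).

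In the other direction, Pcna, the DNA polymerase clamp, was at 164, 173 and 132 CPM in SeV + CpGB and at 491, 478 and 526 CPM in the triplet, a 3.2-fold rise without overlap. It was 1 of 3 tested genes of 16 on the cell cycle list. Hk3, an enzyme of the first step of glycolysis, rose 2.29-fold. Pfkp, a phosphofructokinase, rose 2.06-fold and lost its call without SeV + CpGB replicate 1 or 2 or triplet replicate 3, at adjusted p-values of 0.0523 to 0.293. They were the 2 called genes of 16 glycolysis and hypoxia genes tested, where 2.1% of all tested genes rose.

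The largest rises with cGAMP were in genes of low level. Mid1, Pax4 and Klf8 had 0 counts in the 3 SeV + CpGB libraries and 19, 19 and 17 in the triplet, which makes them at least 8.03-fold, 8.03-fold and 7.18-fold higher against a floor of 3 counts over the group. With the 24 libraries thinned, Pax4 and Klf8 lost their calls (adjusted p = 0.0766 and 0.0995). Ccne1, which encodes cyclin E1, rose from 19.6 ± 3.11 to 195 ± 15 CPM, and Rgcc, a regulator of the cell cycle, from 14.9 ± 1.59 to 153 ± 37.4 CPM (SD, n = 3). Rgcc was lower in the triplet than in SeV + cGAMP, where it was at 329 ± 37.6 CPM (log2 fold change -1.15, adjusted p = 0.00598 by edgeR), a call that was lost without triplet replicate 2 (adjusted p = 0.0653). Bambi, a TGF-beta pseudoreceptor, went from 3 counts to 29, a count ratio of 12.3 (95% counting interval 3.8 to 62.9), and lost its call with the 24 libraries thinned (adjusted p = 0.0826). Psip1, a chromatin-binding coactivator gene, went from 2 counts to 26 (ratio 16.5, interval 4.13 to 143). The largest falls were Agap1, Tifab, 5031439G07Rik, Extl3, Orai2, Ppp3ca, Il21r and Nfam1, which had 2 to 5 counts in the triplet against 22 to 36 in SeV + CpGB. Without triplet replicate 2 the calls of all of these but 5031439G07Rik were lost, at adjusted p-values of 0.058 to 0.193. With DESeq2 those of Agap1, Tifab, Extl3, Orai2, Ppp3ca and Il21r were lost, at its adjusted p-values of 0.057 to 0.101. Agap1, Orai2, Ppp3ca, Il21r and Nfam1 also lost theirs without triplet replicate 1 or 3 or a SeV + CpGB library, at adjusted p-values of 0.051 to 0.451.

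SeV added to cGAMP + CpGB gave 0 called genes with edgeR and 0 with DESeq2, while 262 and 202 of 4720 genes had an unadjusted p under 0.05. The smallest adjusted p was 0.0503, for Usp16, a deubiquitinase gene with 0 counts in cGAMP + CpGB and 13 in the triplet, at least 5.93-fold higher against a floor of 3 counts over the group. Usp16 passed without triplet replicate 2 (adjusted p = 0.0196). Members of the cytokine list had a median log2 fold change of -0.01, with 6 higher and 6 lower. Il6 was at 4134, 4086 and 4636 CPM in the pair and at 3886, 3567 and 4181 CPM in the triplet. These ranges overlap, and the 95% interval of its log2 fold change was -0.40 to 0.11. Il12b was at 637, 275 and 245 CPM and at 636, 283 and 246 CPM, with overlap. Tnf was at 19798, 21942 and 21578 CPM in the pair, all above the triplet, with a log2 fold change of -0.30 (adjusted p = 0.859). Antiviral genes had a median of -0.08, from -0.24 to 0.37. Among the 2840 genes that averaged 50 CPM or more in the pair or the triplet, the 95% interval of 1583 (55.7%) lay within a 2-fold difference either way.

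All 3 triplet libraries lay above the 3 of cGAMP + CpGB for 217 of the 4720 genes (4.6%) and below them for 319 (6.76%), none of which was called. Ifnb1, which was named for every comparison, and Cxcl2 and Cxcl3, which were chosen after their values were seen, are 3 of them. Ifnb1 was at 458, 333 and 436 CPM with cGAMP + CpGB and at 603, 478 and 645 CPM in the triplet. All triplet libraries were higher (log2 fold change 0.50, 95% interval 0.05 to 0.94, adjusted p = 0.811). Cxcl2 was at 3744, 3727 and 4056 CPM in the pair and at 2401, 2452 and 2655 CPM in the triplet, all lower (log2 fold change -0.62, 95% interval -0.96 to -0.28, adjusted p = 0.341). Cxcl3 had 1426, 1543 and 1452 CPM against 1061, 788 and 831 CPM, again all lower (log2 fold change -0.73, adjusted p = 0.649). In a fit of the 12 libraries of the triplet and its pairs alone, with 2263 genes tested, Cxcl2 and Cxcl3 had adjusted p-values under 0.05 at log2 fold changes of -0.59 and -0.71, which are under the fold threshold. Without the filter on low counts Cxcl2, Cxcl3 and Ptx3 had adjusted p-values under 0.05, at -0.71, -0.83 and -0.67, again under the fold threshold.

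A gene that stands outside all 3 pairs has to pass against each of them, so the 0 calls against cGAMP + CpGB leave no gene that could. By the largest of the 3 p-values, 0 genes were at least 2-fold above all 3 pairs and 0 at least 2-fold below them (0% each), with edgeR and with DESeq2. With edgeR 14 and 38 genes had an unadjusted p under 0.05. For Il6, Tnf, Il12b and Ptgs2 the triplet means of 3878, 17171, 389 and 654 CPM sat beside 4286, 21106, 385 and 657 CPM with cGAMP + CpGB. For Ifit1 the triplet mean of 5072 CPM sat beside 5021 CPM with SeV + cGAMP.

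The same ligand was then followed over fewer partners, a set of 9 contrasts chosen after the data were seen. CpGB changed 804 genes against Ctrl (17%), 296 on top of SeV (6.27%), 337 on top of cGAMP (7.14%) and 256 on top of both. cGAMP changed 830 genes against Ctrl (17.6%), 64 on top of SeV (1.36%), 367 on top of CpGB (7.78%) and 144 on top of both. SeV changed 737 genes against Ctrl (15.6%), 1 on top of cGAMP (0.0212%), 33 on top of CpGB (0.699%) and 0 on top of both. The 1 gene was Slco3a1, an organic anion transporter gene, at 78.4 ± 30.5 CPM with cGAMP and 191 ± 25.6 CPM with SeV + cGAMP (SD, n = 3). Among the 33 were Ifit1, Ifit2, Ifit3, Mx1, Mx2, Rsad2, Cxcl10 and Ifnb1. These contrasts share libraries, and the counts were not tested against each other.

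**Figure D3:**
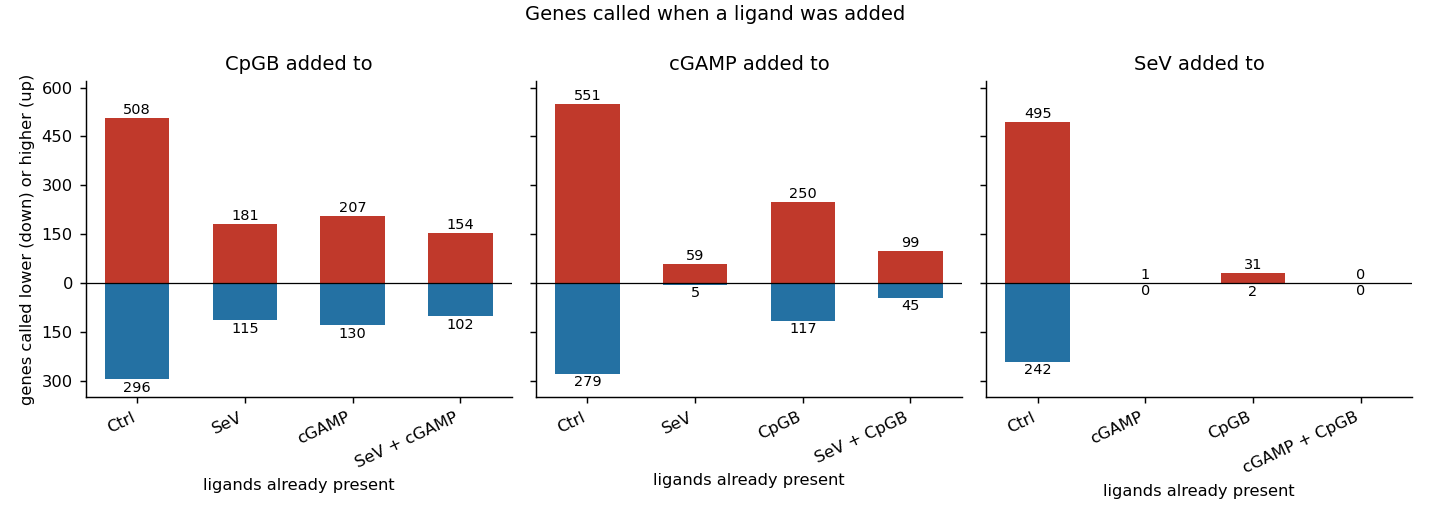
Number of called genes (y axis) when CpGB, cGAMP or SeV (3 panels) was added to Ctrl, to either other ligand or to both (x axis), with bars upward for genes higher, bars downward for genes lower and each count printed. Each ligand changed most genes against Ctrl, 737 to 830, and SeV changed 0 on top of cGAMP + CpGB.

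The antiviral and cytokine lists both held genes that rose with each single ligand. The antiviral list rose as a whole with each single ligand, 24 of 24 genes against Ctrl for SeV, cGAMP and CpGB alike, where 10.5%, 11.7% and 10.8% of all tested genes rose. The median of its 24 mean levels was 92.1 CPM in Ctrl, 528 with CpGB, 837 with SeV and 1014 with cGAMP. It was 787 CPM with SeV + CpGB, 1111 with SeV + cGAMP, 1214 with cGAMP + CpGB and 1145 in the triplet. Of the 12 cytokines, 10 rose with CpGB alone, 4 with SeV alone and 3 with cGAMP alone. Their median level was 42.1 CPM in Ctrl, 112 with SeV, 117 with cGAMP and 235 with CpGB. It was 151 CPM with SeV + cGAMP, 183 with SeV + CpGB, 343 with cGAMP + CpGB and 354 in the triplet. On top of CpGB, cGAMP raised 5 of the 12 cytokines and 9 of the 24 antiviral genes, while SeV raised 0 and 7, where 5.3% and 0.657% of all tested genes rose.

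**Figure D4:**
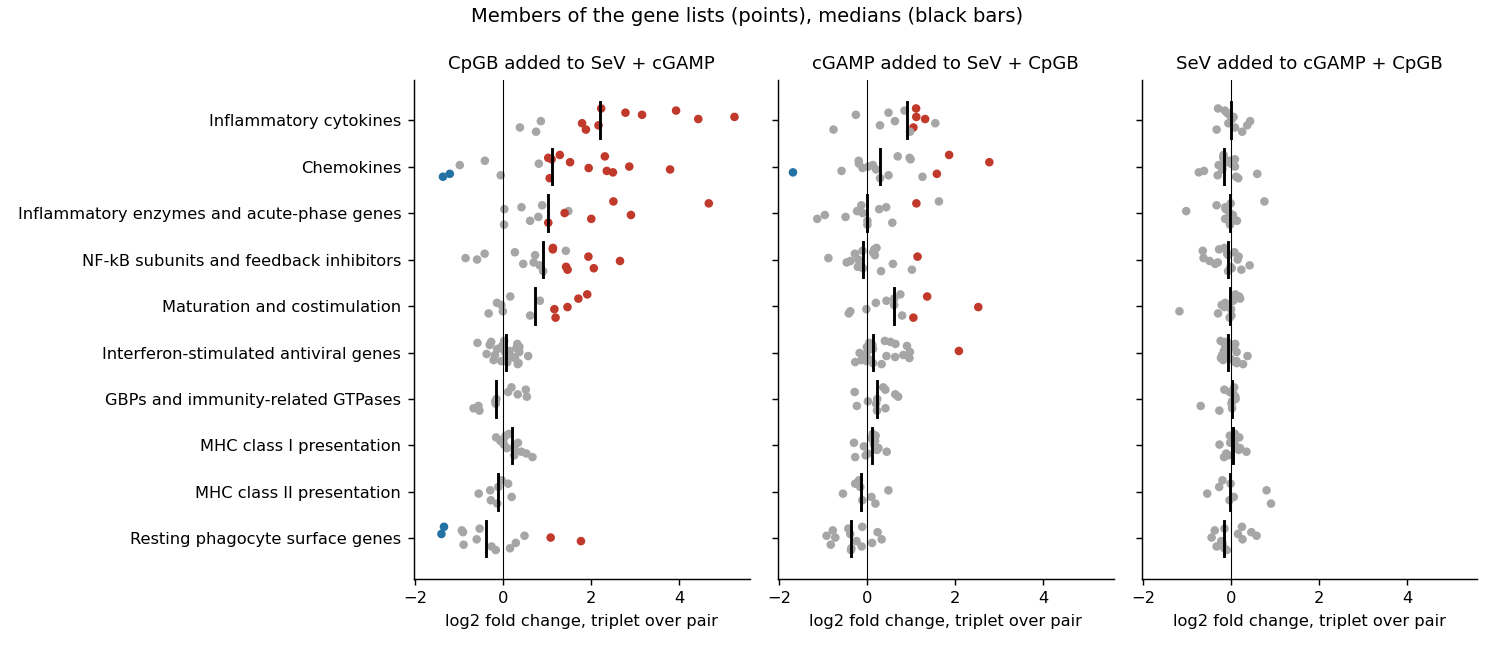
Log2 fold change of the triplet over each pair (x axis) for the tested members of 10 gene lists (rows), in 3 panels for CpGB, cGAMP or SeV added, with points for genes (red called higher, blue called lower, grey not called) and black bars for the median. With CpGB the cytokine and chemokine medians are 2.19 and 1.10 and that of the antiviral list is 0.05, and with SeV added 0 points are coloured.

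Whether a ligand did the same in the presence of the other ligands as alone was tested as an interaction on the log2 scale, where 0 means that the added log2 effect equals the effect against Ctrl. Interactions were called at an adjusted p under 0.05, whatever their size. The effect of CpGB was lower on SeV + cGAMP than alone for 312 genes (6.61%) and higher for 49 (1.04%). For cGAMP on SeV + CpGB the numbers were 365 (7.73%) and 79 (1.67%), and for SeV on cGAMP + CpGB they were 430 (9.11%) and 78 (1.65%). Scaled by library size alone, the splits were 264 lower and 81 higher for CpGB, 315 lower and 146 higher for cGAMP and 327 lower and 183 higher for SeV. The higher counts also rested on single libraries. For CpGB the 49 became 27 without CpGB replicate 2, 29 without triplet replicate 2 and 30 without Ctrl replicate 3 or SeV + cGAMP replicate 1. For cGAMP the 79 became 47 and 51 without Ctrl replicates 3 and 2, 52 without SeV + CpGB replicate 1 and 50 without triplet replicate 2. For SeV the 78 became 43, 48 and 49 without triplet replicates 1, 2 and 3, 45 without Ctrl replicate 3 and 46 without SeV replicate 2. For all 3 ligands the higher counts fell further without the filter on low counts and with the 24 libraries thinned. Those numbers are given where the dependence on the processing is described. Against medians over all genes of -0.05, -0.02 and -0.01 for CpGB, cGAMP and SeV, RLE scaling shifted the median by 0.11, 0.12 and 0.15 and library size alone by 0.13, 0.18 and 0.25, all less than the interactions given below.

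All 24 antiviral genes had negative interactions with each ligand, with medians of -2.59 for CpGB, -3.30 for cGAMP and -3.59 for SeV. CpGB alone took Ifit1 from 218 ± 29.1 CPM in Ctrl (SD, n = 3) to 1174, 2027 and 1443 CPM, all above Ctrl, and on SeV + cGAMP its log2 fold change was 0.02. The interaction was -2.85 (SE 0.26, adjusted p = 4.25e-19). For SeV the interaction of Ifit1 was -4.36, and for cGAMP it was -4.26. Ccl5 had negative interactions with all 3 ligands, from -1.57 to -1.17.

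Of the 12 cytokines 1 had a negative interaction for CpGB, 2 for cGAMP and 4 for SeV, and 0 had a positive one by edgeR. Over all tested genes 6.61%, 7.73% and 9.11% had a negative interaction and 1.04%, 1.67% and 1.65% a positive one. The 1 for CpGB and the 0 positive are near these shares. For Il6, CpGB gave a log2 fold change of 3.92 on SeV + cGAMP and took the level from 126 ± 48.6 to 1160 ± 137 CPM alone (SD, n = 3, interaction 0.78, SE 0.36, adjusted p = 0.208 by edgeR). Tnf had an interaction of -0.61 for CpGB (adjusted p = 0.125), -0.93 for cGAMP (adjusted p = 0.00386) and -1.36 for SeV (adjusted p = 4.51e-06). The first of these passed in 4 of 21 alternatives, at adjusted p = 0.000263 without the filter on low counts, 0.00527 in a fit of the groups compared alone, 0.0154 without Ctrl replicate 2 and 0.0274 without CpGB replicate 1. Il1b was at 5542 ± 826 CPM with CpGB alone and at 4129 ± 133 CPM in the triplet, and its interaction for CpGB was -1.01 (SE 0.24, adjusted p = 0.000807 by edgeR, n = 3). Saa3, at 7605 ± 1312 CPM with CpGB alone and 2935 ± 196 CPM in the triplet, had an interaction of -1.34 (adjusted p = 0.00204 by edgeR, n = 3).

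The three-way interaction, which takes the 3 pairs and Ctrl from the sum of the triplet and the 3 single ligands on the log2 scale, was positive for 154 genes (3.26%) and negative for 14 (0.297%). The 14 became 1 without Ctrl replicate 3, and leaving out any 1 of 18 of the 24 libraries moved that count by over 1.5 times, all but Ctrl replicate 1, CpGB replicate 2, SeV + CpGB replicate 3, cGAMP + CpGB replicate 1 and triplet replicates 1 and 2. Of the 24 antiviral genes 23 were positive, with a median of 2.70, as were 8 of 11 genes of the list of guanylate-binding proteins, immunity-related GTPases and Irf1 (median 2.73) and 6 of 14 genes of MHC class I presentation (median 1.01). Of the 12 cytokines 1 was positive, with a median of 0.47. A positive value does not mean a high triplet. Ifit1 was at 218, 3760, 5445 and 1548 CPM in Ctrl, SeV, cGAMP and CpGB, at 5021, 3843 and 5985 CPM in SeV + cGAMP, SeV + CpGB and cGAMP + CpGB and at 5072 CPM in the triplet. Its three-way interaction was 2.71 (SE 0.33, adjusted p = 1.25e-11).

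The 4 largest positive three-way interactions as fitted belonged to Phf11a, Ddx60, Upp1 and Ccl12, which had 0 counts in Ctrl. Their fitted sizes and ranks therefore depend on the prior count, and the sizes are not given. The 4 largest negative ones were Rnd3 (-4.16), Rab11fip1, a Rab11 effector (-3.08), Nab2, a corepressor of EGR factors (-2.92), and Arhgap25, a Rac GTPase-activating protein (-2.52). Rnd3 was at 128 ± 34.5 CPM with SeV + CpGB, 252 ± 52.4 CPM with cGAMP + CpGB and 131 ± 33.4 CPM in the triplet, against 16.2 to 46.4 CPM with the single ligands (means, n = 3). Without Ctrl replicate 3 none of these 4 passed by edgeR, at adjusted p-values of 0.0923, 0.355, 0.052 and 0.0632. Without each of the other libraries except SeV + CpGB replicate 3, at least 1 of Rab11fip1, Nab2 and Arhgap25 lost its call, at adjusted p-values of 0.0501 to 0.227. Among the positive ones Ddx60 was lost without Ctrl replicate 3 (0.0518) or CpGB replicate 2 (0.0711), Upp1 without Ctrl replicate 3 (0.0553) or CpGB replicate 3 (0.0698), and Ccl12 without any 1 of the Ctrl libraries (0.0939 to 0.141) and without single libraries of 6 other groups.

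**Figure D5:**
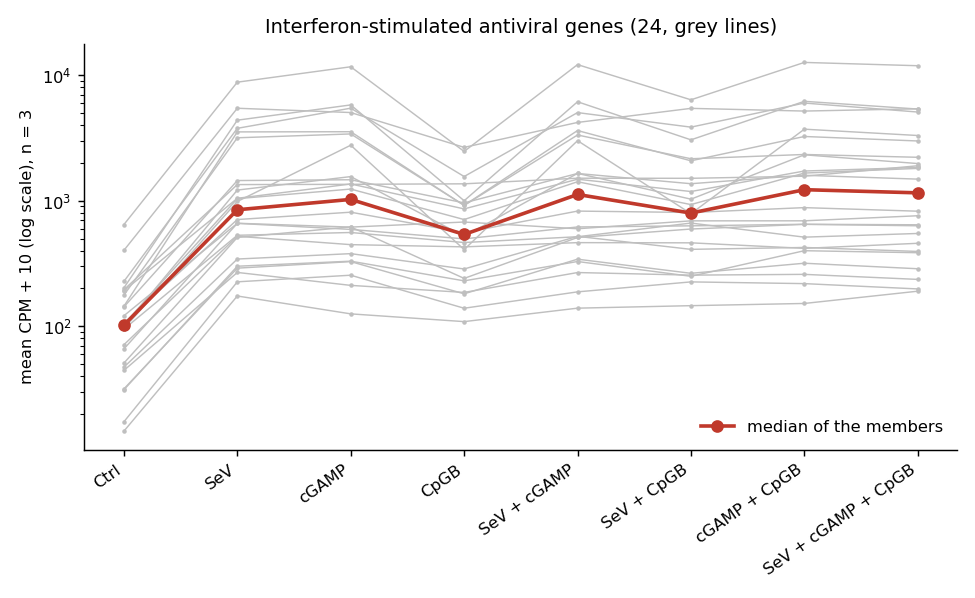
Mean CPM + 10 (y axis, log scale) of the 24 antiviral genes in Ctrl, the single ligands, the pairs and the triplet (x axis), with 1 grey line per gene and a red line for their median. The median level of the genes is lowest in Ctrl (92.1 CPM), next lowest with CpGB alone (528 CPM), and 1145 CPM in the triplet.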

How the data were processed

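The authors deposited a table of UMI counts per gene symbol, 23481 symbols in 64 groups of 3 libraries, and the values are raw counts per library. The submitters' processing notes name BWA 0.7.15 and mm10 without stating their roles; the annotation, the collapsing of UMIs and the treatment of reads with several matches are not given in the sources used here. Per the labels' protocols, barcoded cDNA was pooled before amplification and sequenced on a NextSeq instrument.

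All libraries of the 64 groups were fitted in edgeR 4.0.16 (R 4.3.3) with 1 coefficient per group, after filterByExpr (4720 genes, 95.7% of counts) and TMM scaling, with quasi-likelihood tests on 128 residual degrees of freedom and Benjamini-Hochberg adjustment over the 4720 genes. The triplet was set against each pair, against all pairs (largest p-value) and in interactions. The procedure was tested on simulated data. Intervals are 95% and, for count ratios, cover counting error only. Alternatives were RLE scaling or library size alone, other filters, the 12 libraries of the comparison alone, DESeq2 1.42.0, thinning, the replicate number as a block and leaving out each library.

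The members (this combination and its pairs) and the gene lists were chosen with earlier results of these data known, and the libraries of each group were taken by their labels. Named genes were per contrast, the 8 called rises and 8 called falls of largest size among those of at least 50 CPM whose libraries do not overlap between the groups, the 4 largest three-way interactions each way, up to 4 called members per list, and Ifnb1, Tnf, Il6, Il12b, Il10, Il1b, Cxcl10, Ccl5, Ifit1 and Nos2. Others were named after their values were seen. Promoters came from RefSeq.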

Additional observations from a re-analysis of the deposited data

Results flagged for a closer look

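Each of the following was listed because the effect of a ligand in the presence of the other ligands differed from its effect alone, by an interaction test in edgeR across all tested genes. Such a test passed for 49 genes with a higher and 312 with a lower effect of CpGB, for 79 and 365 with cGAMP and for 78 and 430 with SeV.

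For CpGB on SeV + cGAMP the interactions on the log2 scale were -1.01 for Il1b, -2.28 for Cxcl10, -1.54 for Ccl5 and -2.85 for Ifit1. For cGAMP on SeV + CpGB they were -2.28 for Ifnb1, -0.93 for Tnf, -4.37 for Cxcl10, -1.57 for Ccl5 and -4.26 for Ifit1. For SeV on cGAMP + CpGB they were -3.84 for Ifnb1, -1.36 for Tnf, -4.52 for Cxcl10, -1.17 for Ccl5 and -4.36 for Ifit1. The Ifnb1 value for cGAMP had an adjusted p of 0.0496 and a 95% interval of -3.86 to -0.71, on 3 counts in the 3 Ctrl libraries together. It passed in 9 of 21 alternatives and not in the other 12, among them both other scalings, DESeq2 and leaving out any Ctrl library, cGAMP replicate 1 or 2, SeV + CpGB replicate 1 or triplet replicate 2, at adjusted p-values of 0.0581 to 0.167. All of these are negative, and each is measured against the same 3 Ctrl libraries, which held 61823 to 89530 counts and were shallower than the libraries of the triplet and its pairs (94273 to 194237).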

How the results depend on the processing

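Of 154 values for named genes, recomputed under 13 to 33 alternatives each, beside 16 counts under 16 to 33, 98 of the gene values stayed on their side of the threshold throughout, and none changed direction after being called. Without the fold threshold 167 genes were lower with CpGB and 85 with cGAMP. Positive interactions for CpGB, cGAMP and SeV numbered 80, 122 and 121 with RLE scaling, 81, 146 and 183 with library size alone, 11, 21 and 18 without the filter, and 19, 32 and 33 with the 24 libraries thinned. The negative three-way interactions numbered 4 without the filter, 30 with the 24 libraries alone, 8 with DESeq2 and 6 with either thinning, and the positive ones 102 with the 24 libraries thinned. With a mean of at least 50 CPM required, 62 genes were lower with CpGB, and positive interactions numbered 80 for CpGB and 132 for SeV. DESeq2 called 24 genes lower with cGAMP. With the 24 libraries thinned, CpGB gave 97 higher and 42 lower and cGAMP 53 higher and 20 lower. With the 12 libraries thinned, an alternative chosen after seeing the data, SeV gave 1 higher (Tnks2, 3.48 on the log2 scale) and 1 lower (Sept2, -1.07).

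With the replicate block, 1 gene was higher with SeV (Usp16), and no other count moved by over 1.5 times. The labels do not say what samples with the same number share. Correlations of their deviations were -0.019 to 0.056 (median 0.023, 18 pairs), against -0.049 to 0.035 (median -0.012, 36 pairs) for different numbers. The difference between these medians was not tested.

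Leaving out 1 library at a time gave 126 to 150 genes higher and 72 to 104 lower with CpGB, 82 to 94 higher and 28 to 52 lower with cGAMP (28 without triplet replicate 1), and 0 to 1 each way with SeV (1 higher without triplet replicate 2, 1 lower without triplet replicate 2 or 3). Genes outside all 3 pairs stayed at 0. Interactions ranged from 27 to 42 positive and 271 to 372 negative for CpGB, 47 to 68 and 326 to 387 for cGAMP, 43 to 61 and 394 to 461 for SeV, and 123 to 187 and 1 to 15 for the three-way term (1 without Ctrl replicate 3). Depth limits genes under about 50 CPM most, since 3 counts are 15.7 to 33.5 CPM.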

Other observations

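Ppp1r15a, the phosphatase subunit that ends the integrated stress response, was higher in the triplet than in SeV + cGAMP, which lacks CpGB, and than in SeV + CpGB, which lacks cGAMP. It stood at 134, 121 and 169 CPM with SeV + cGAMP, at 156, 128 and 99.1 CPM with SeV + CpGB and at 313, 336 and 356 CPM in the triplet, with no overlap (log2 fold changes 1.24 and 1.41, adjusted p = 6.43e-05 and 2.74e-05 by edgeR). The call against SeV + CpGB was lost with the 24 libraries thinned (adjusted p = 0.0842). With cGAMP + CpGB it was at 348, 275 and 269 CPM, which overlaps the triplet. Cd200, a surface ligand that restrains myeloid cells, was called in the same comparisons, at 92.2 ± 16.6, 101 ± 37, 215 ± 6.9 and 212 ± 29.3 CPM with SeV + cGAMP, SeV + CpGB, cGAMP + CpGB and the triplet (SD, n = 3). Its call against SeV + CpGB (log2 fold change 1.05, adjusted p = 0.0196 by edgeR) was lost in 7 of 15 alternatives, among them without SeV + CpGB replicate 1 or 3 or triplet replicate 1 or 2, at adjusted p-values of 0.0506 to 0.136. Sod2, the mitochondrial superoxide dismutase, was at 898 ± 167 CPM with SeV + cGAMP and at 2490 ± 239, 2377 ± 181 and 2322 ± 187 CPM in the groups that hold CpGB (SD, n = 3). Of the Stat and Socs list, 3 of 9 tested genes rose with CpGB (Socs3, Stat5a and Pim1) and 1 fell, Socs1, with a list median of 0.009. Over all tested genes 3.26% rose and 2.16% fell. Pim1 (log2 fold change 1.10, adjusted p = 0.0289 by edgeR) lost its call in 9 of 15 alternatives, among them DESeq2 (adjusted p = 0.0514) and leaving out SeV + cGAMP replicate 1 or 3 or triplet replicate 1 or 2 (0.0739 to 0.155).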
